A study of Homo sapiens with 18 samples.

Results

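The 50 genes described here act in the G2 phase of the cell cycle and in mitosis. They were chosen by symbol for their known roles, but with earlier results of these data known. All 50 are among the 28063 gene symbols of the count tables. All 50 also passed the filter on low counts, which left 12853 genes to test. They were split by function into 7 groups: CDK1, cyclins and their activators (7 genes), the spindle checkpoint and its target, the anaphase-promoting complex (8), mitotic kinases with the chromosomal passenger complex (8), kinesins (8), kinetochore proteins (6), spindle-associated and cytokinesis proteins (9), and proteins of mitotic chromosome structure with the proliferation antigen MKI67 (4).

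Newly made messenger RNA was measured in 3 human neuroblastoma lines, IMR-32, KELLY and SK-N-DZ, tumour lines of the sympathetic nervous system that carry amplified MYCN. Unmodified cells (genotype WT) of each line were given 1 uM BRM014, which blocks the ATPases SMARCA4 and SMARCA2 of SWI/SNF chromatin remodelling complexes, or the same volume of DMSO. An IMR-32 line whose SMARCA4 carries an auxin-inducible degron tag (genotype SMARCA4-mAID) was given 500 uM auxin (indole-3-acetic acid), which targets a tagged protein for destruction, or ethanol. All of these cells received 500 uM of the uridine analogue 4-thiouridine (4sU) for 2 h before harvest, and the remaining group, KELLY cells labelled as untreated and given no 4sU, measured the background. RNA was treated with iodoacetate, which modifies 4sU so that newly made transcripts can be recognised after sequencing, and poly(A) RNA was captured. There were 2 libraries per group and 18 in all. For how long cells were kept in BRM014 or auxin, and whether the degron line is 1 clone, is not stated in the labels.

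Cells that enter mitosis switch on cyclin-dependent kinase 1 (CDK1) with its partners cyclin A2, B1 and B2, and the CDC25 phosphatases remove the phosphates that hold CDK1 inactive. Most genes of this programme are transcribed in late S and G2 phase. Their promoters are known for CCAAT boxes, bound by NF-Y, and for the cell cycle homology region (CHR), bound by the MuvB core, which holds the genes silent with E2F4 and p130 in resting cells and activates them with MYBL2 and FOXM1 in dividing ones.

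That promoter layout is shown for 6 members whose values the results turn on: 4 that rose in SK-N-DZ, 1 (MKI67) that fell in KELLY and IMR-32, and PLK1, which fell in IMR-32. They were picked after their values had been seen. Each line gives the 130 bases before the RefSeq start site in build GRCh38.p14, 5′ to 3′ on the gene's own strand, with CHR elements (TTTGAA or its reverse complement TTCAAA) and CCAAT boxes (CCAAT or ATTGG) in capitals.
HMMR, chr5:163460502-163460631, plus strand: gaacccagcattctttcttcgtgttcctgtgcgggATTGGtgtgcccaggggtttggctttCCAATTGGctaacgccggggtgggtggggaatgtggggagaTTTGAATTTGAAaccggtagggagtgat
CCNB2, chr15:59105016-59105145, plus strand: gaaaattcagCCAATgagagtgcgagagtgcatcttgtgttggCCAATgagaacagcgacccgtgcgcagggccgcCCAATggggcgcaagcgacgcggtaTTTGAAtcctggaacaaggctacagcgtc
ASPM, chr1:197146670-197146799, minus strand: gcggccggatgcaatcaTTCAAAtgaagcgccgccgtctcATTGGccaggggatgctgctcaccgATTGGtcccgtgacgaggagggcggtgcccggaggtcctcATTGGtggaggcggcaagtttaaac
CENPE, chr4:103198344-103198473, minus strand: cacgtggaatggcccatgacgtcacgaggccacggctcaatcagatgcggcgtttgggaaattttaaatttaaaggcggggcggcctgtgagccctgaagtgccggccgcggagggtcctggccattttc
PLK1, chr16:23678759-23678888, plus strand: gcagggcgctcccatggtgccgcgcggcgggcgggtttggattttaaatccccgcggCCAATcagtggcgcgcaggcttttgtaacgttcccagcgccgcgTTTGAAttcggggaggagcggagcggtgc
MKI67, chr10:128126424-128126553, minus strand: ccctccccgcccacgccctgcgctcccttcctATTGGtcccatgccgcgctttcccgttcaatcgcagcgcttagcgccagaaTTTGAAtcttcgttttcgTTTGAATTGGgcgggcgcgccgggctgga
HMMR held 2 CHR elements, side by side, and 3 matches to the CCAAT box, of which the last pair overlap. CCNB2 and ASPM held 1 CHR element and 3 CCAAT boxes, MKI67 2 of each, with 1 pair sharing a base, and PLK1 1 of each. No exact match to either motif occurred in the CENPE stretch. RefSeq promoters of 300 bases (250 before the start and 50 after) were matched for 43 of the 50 members; AURKA, BIRC5, BUB3, FOXM1, TPX2, TTK and UBE2C had no entry in the table used. A CHR element on either strand was present in 32 of the 43 (74.4%), against 18.2% of 27305 genes in the whole table. A CCAAT box was present in 33 (76.7%) against 39.7%, and both together in 25 (58.1%) against 8.4%. The motifs can share a base where they meet, and a match describes the sequence and not the binding of a factor. Only these exact letters were searched, so elements with other letters were not counted, here or below.

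A labelled library held between 724913 and 1740475 counts in genes, and the 50 members took 7588 to 19589 of them. The BRM014 libraries of SK-N-DZ (724913 and 758288) and IMR-32 (741970 and 775064) were the shallowest. Levels are given below as CPM, counts scaled to an effective library total of 1e+06 counts, which compares a gene between libraries and not one gene with another, and a log2 fold change is a change against the rest of the library's genes. The unlabelled KELLY libraries held 4 and 6 counts over the members, with 45 members at 0. Their summed member counts were 0.0316% of those in the labelled DMSO libraries of KELLY, against 0.348% for all genes. Summed neuroblastoma markers lay between 6756 and 14300 CPM in every labelled library, and summed blood, endothelial and epithelial markers between 0 and 3.74 CPM. In the degron line SMARCA4 itself had 1091 and 1379 counts with ethanol and 887 and 942 with auxin (log2 fold change -0.35 ± 0.119, adjusted p = 0.109). This checks the transcript and not the tagged protein, whose loss with auxin these counts do not measure. Unmodified IMR-32 with DMSO had only 123 and 117 SMARCA4 counts, in libraries of 1438139 and 1148208 counts against 1505905 and 1638317 with ethanol. The 2 lines thus differed in SMARCA4 reads before auxin, which limits every comparison between them. The reason was not tested. Nothing in the labels tells if replicate libraries were made from different cultures, and the p-values then reflect only the spread among the libraries at hand, which may be technical. In bulk libraries, more or fewer cells in G2 and mitosis and more or less RNA per cell cannot be told apart.

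BRM014 raised many of the 50 members in SK-N-DZ. The same was not seen in 71 further genes of this phase, given below (12.7% higher and 15.5% lower). Of the 50 members, 24 (48%) were higher with BRM014 and 1 (2%), CDC25B, was lower at an adjusted p below 0.05, while 9.88% of all tested genes were higher and 9.55% lower. The median change of the members was 0.40, against -0.04 over all genes tested, and 43 of the 50 estimates lay above 0. The members' share of all gene counts was 1.13% ± 0.00495 (SD, n = 2) with DMSO and 1.44% ± 0.024 with BRM014. By function, 7 of the 9 spindle-associated and cytokinesis genes rose, 4 of the 6 kinetochore genes, 4 of the 8 kinases and passenger proteins, 4 of the 7 genes around CDK1, 2 of the 8 checkpoint genes, 2 of the 8 kinesins and 1 of the 4 chromosome structure genes. This order changed with an offset for G+C content and transcript length (described below). The kinases and passenger proteins then had 6 of 8 higher, at a median of 0.71 against 0.37 without it. The spindle and cytokinesis genes had 5 of 9, the CDK1 group 3 of 7, and the checkpoint genes 3 of 8 with 1 lower. The kinetochore genes and the kinesins had 1 each, and the chromosome structure genes 1 higher and 1 lower.

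**Figure D1:**
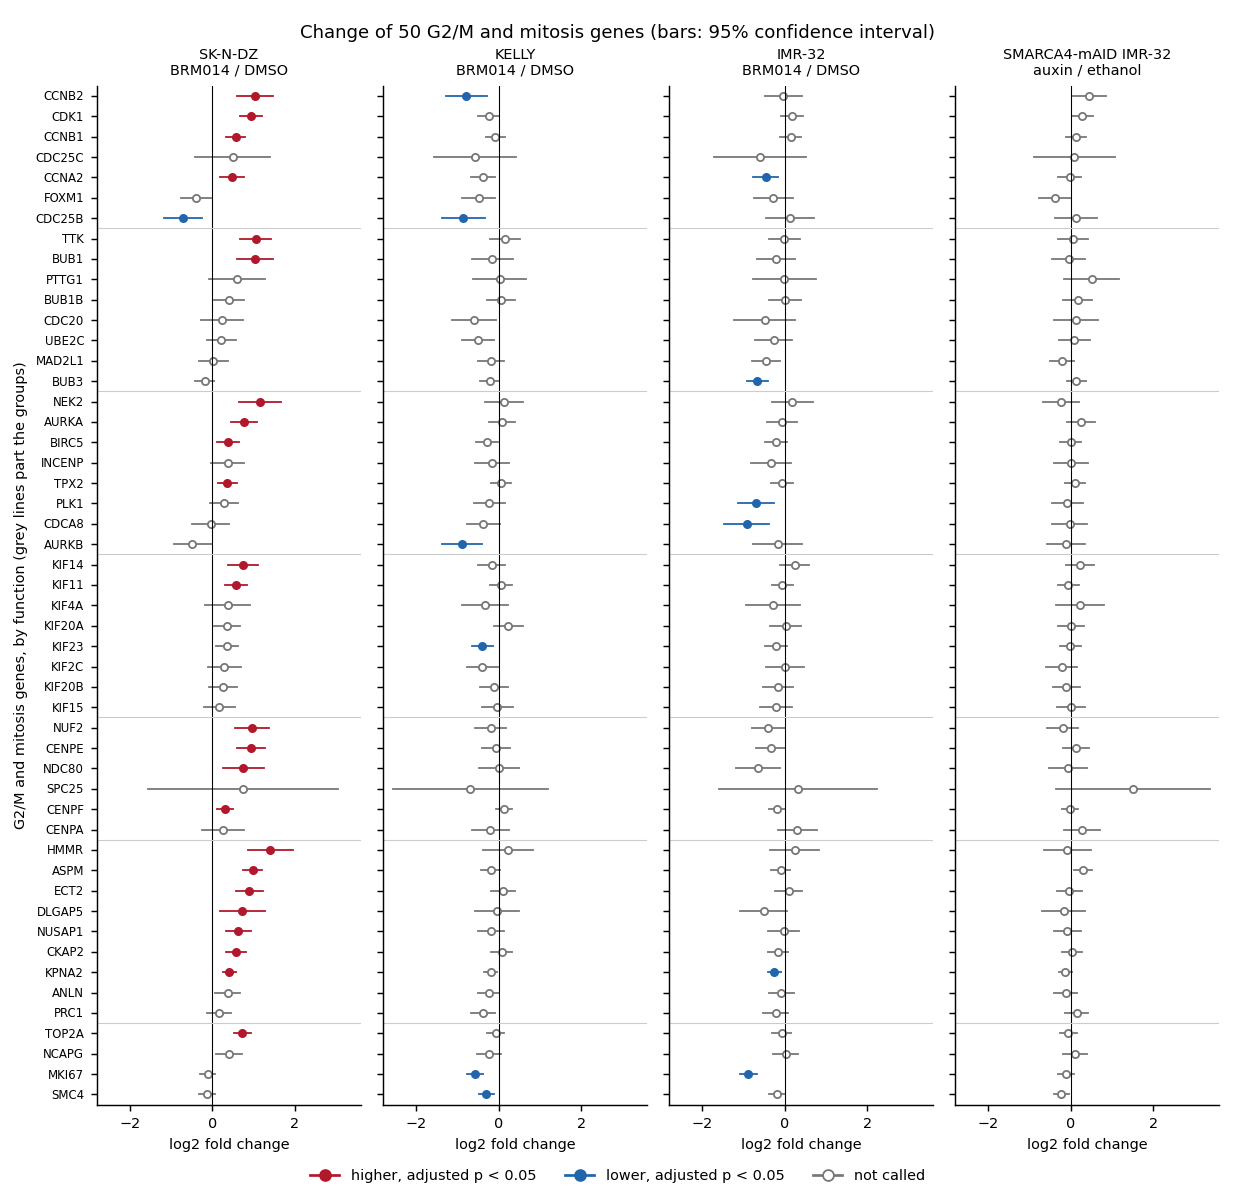
Log2 fold change (x axis) of each of the 50 members (y axis, ordered by function and by the SK-N-DZ change) in the 4 treated groups against their own vehicle, with bars for the 95% confidence interval and filled points at an adjusted p below 0.05. The red points, 24 in number, all stand in the SK-N-DZ panel, and the auxin panel has no filled point.

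CDK1, the kinase that drives entry into mitosis (chr10:60778331-60794852; gene bounds here and below are those of GENCODE 29 on hg38, which can differ from the RefSeq start), was measured at 186 and 167 CPM with DMSO and 347 and 328 CPM with BRM014. Both treated libraries were far above both controls (log2 fold change 0.94 ± 0.135 (SE), adjusted p = 3.50e-08). Its partner cyclin B1 (CCNB1, chr5:69167010-69178245) went from 323 and 376 CPM to 509 and 523 CPM, with no overlap (log2 fold change 0.56 ± 0.119 (SE), adjusted p = 1.61e-04). Cyclin B2 (CCNB2, chr15:59105078-59125045) went from 56.9 and 70.5 CPM to 138 and 124 CPM. Again the pairs were well apart (log2 fold change 1.04 ± 0.222 (SE), adjusted p = 1.99e-04). Cyclin A2 (CCNA2), which acts in S and G2 phase, rose by less (log2 fold change 0.47 ± 0.149 (SE), adjusted p = 0.0152). CCNA2 was no longer called without the second DMSO library (0.30) or either BRM014 library (0.49 and 0.45). None of the activators was called higher. CDC25B, a phosphatase that starts CDK1 activation (chr20:3786772-3806121), fell from 164 and 203 CPM to 94.4 and 129 CPM, so that both treated libraries lay below both controls (log2 fold change -0.72 ± 0.235 (SE), adjusted p = 0.0203), a call lost without the first BRM014 library (-0.52) or the second DMSO library (-0.56). CDC25C, a phosphatase of the same family, was at 26.4 and 29.7 CPM with DMSO and 38.5 and 40.4 CPM with BRM014. Its treated libraries were higher without overlap, but the interval of -0.42 to 1.40 around its estimate of 0.49 covered 0. FOXM1, the transcription factor of G2/M genes (chr12:2857681-2877155), stood at 244 and 224 CPM with DMSO and 199 and 158 CPM with BRM014. The treated libraries were lower without overlap, but the change of -0.39 ± 0.184 did not pass the test (adjusted p = 0.130) and turned to 0.06 with an offset for G+C content and transcript length.

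Among spindle checkpoint genes, the kinases TTK and BUB1 rose. TTK, also called MPS1, which recruits the checkpoint to unattached kinetochores (chr6:80003887-80042527), went from 77.9 and 79.9 CPM to 164 and 163 CPM. Each pair of libraries was tight, and the pairs were far apart (log2 fold change 1.05 ± 0.192 (SE), adjusted p = 1.16e-05). BUB1 (chr2:110637698-110678114) rose by 1.03 ± 0.225 (adjusted p = 2.68e-04). For the other 6 genes of the group (BUB1B, BUB3, MAD2L1, CDC20, UBE2C and PTTG1) the estimates ran from -0.19 for BUB3 to 0.60 for PTTG1, the securin that restrains separase, and none passed the test. Reads of PTTG1 may be shared with its copies PTTG2 and PTTG3P.

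Of the mitotic kinases, Aurora A and NEK2 rose. Aurora A (AURKA), which matures the spindle poles (chr20:56369389-56392337), went from 175 and 138 CPM to 272 and 259 CPM. Both treated libraries exceeded both controls (log2 fold change 0.76 ± 0.162 (SE), adjusted p = 1.79e-04). Its activator TPX2 rose by 0.36 ± 0.120 (adjusted p = 0.0211), and NEK2, a kinase of centrosome separation, by 1.15 ± 0.254 (adjusted p = 3.18e-04). Polo-like kinase 1 (PLK1, chr16:23677656-23690367) was measured at 196 and 224 CPM with DMSO and 259 and 255 CPM with BRM014, separate but close (log2 fold change 0.29 ± 0.171 (SE), adjusted p = 0.248). Of the chromosomal passenger complex, survivin (BIRC5) rose by 0.38 ± 0.136 (adjusted p = 0.0370), and like TPX2 it lost its call when any 1 SK-N-DZ library was left out (BIRC5 at 0.35 to 0.40, adjusted p from 0.0948 to 0.16, and TPX2 at 0.32 to 0.40, adjusted p from 0.053 to 0.14). Its partners differed in direction without passing the test: INCENP had 0.37, CDCA8 -0.04 (0.19 with the offset) and the kinase AURKB -0.49.

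The kinetochore genes had a median change of 0.74 and the spindle and cytokinesis genes of 0.63, and with an offset for G+C content and transcript length (described below) 0.46 and 0.44. Of the 6 kinetochore genes NUF2 alone stayed called with that offset. CENPE, the kinesin that carries chromosomes to the spindle equator (chr4:103105806-103198409), went from 111 and 120.1 CPM to 219 and 222 CPM (log2 fold change 0.93 ± 0.172 (SE), adjusted p = 1.36e-05). The outer kinetochore proteins NUF2 and NDC80, partners in one complex, rose by 0.96 ± 0.213 (adjusted p = 3.38e-04) and 0.75 ± 0.249 (adjusted p = 0.0228). Their treated libraries lay far apart, NUF2 at 91.7 and 172 CPM against 60.5 and 75.5 CPM with DMSO, and NDC80 at 137 and 72.0 CPM against 62.3 and 61.7 CPM. Without the second BRM014 library the NUF2 change was 0.43 (adjusted p = 0.32), and without the first the NDC80 change was 0.21 (adjusted p = 0.756). NDC80 was also lost without either DMSO library (0.78 and 0.74, adjusted p = 0.0691 and 0.102), and CENPF (0.31 ± 0.0979) without the first BRM014 library (0.26) or the second DMSO library (0.29). SPC25, of the same complex, had 0 to 19 counts in a labelled library and an interval of -1.57 to 3.03 in SK-N-DZ, too wide to place it.

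ASPM, which organises spindle poles (chr1:197084128-197146694), had the smallest p of all members. It went from 263 and 252 CPM to 552 and 459.8 CPM (log2 fold change 0.97 ± 0.117 (SE), adjusted p = 1.12e-10), with both treated libraries well above both controls. ECT2, the exchange factor that starts cytokinesis, went from 107 and 123 CPM to 238 and 191 CPM (log2 fold change 0.89 ± 0.164 (SE), adjusted p = 1.25e-05). The largest fold among called members was that of HMMR, which is given in full for that reason after its values were seen. HMMR, a hyaluronan receptor that also binds the spindle (chr5:163460203-163491945), went from 44.9 and 52.9 CPM to 142 and 117 CPM. Both treated libraries were far above both controls (log2 fold change 1.40 ± 0.275 (SE), adjusted p = 4.38e-05), and its exons overlap those of the antisense gene HMMR-AS1, from whose reads its own cannot be told apart without a stated strand setting. NUSAP1, CKAP2, DLGAP5 and KPNA2 rose by 0.63, 0.58, 0.73 and 0.41, and the cytokinesis proteins ANLN and PRC1, at 0.37 and 0.17, did not pass the test. DLGAP5 lost its call without the second BRM014 library (0.27, adjusted p = 0.693), without either DMSO library (0.69 and 0.79), with total-count scaling (0.72), with no filter (0.73) and by DESeq2 (adjusted p = 0.0515).

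The kinesins, motors of the spindle, had estimates from 0.16 for KIF15 to 0.74 for KIF14, and with the G+C and length offset those of KIF15 (-0.05) and KIF20B (-0.29) lay below 0. The test was passed by KIF14 (adjusted p = 0.00139) and by the bipolar motor KIF11, also called Eg5 (0.57 ± 0.133, adjusted p = 6.48e-04). Topoisomerase 2-alpha (TOP2A), which untangles sister chromosomes (chr17:40388516-40417950), went from 516 and 482 CPM to 825 and 818 CPM. The treated pair was nearly identical and far above the controls (log2 fold change 0.72 ± 0.106 (SE), adjusted p = 7.06e-08). MKI67, which coats mitotic chromosomes (chr10:128096659-128126385), was at 956 and 1029 CPM with DMSO and 884 and 943 CPM with BRM014, a difference of -0.12 ± 0.0967 that did not pass the test (adjusted p = 0.438).

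**Figure D2:**
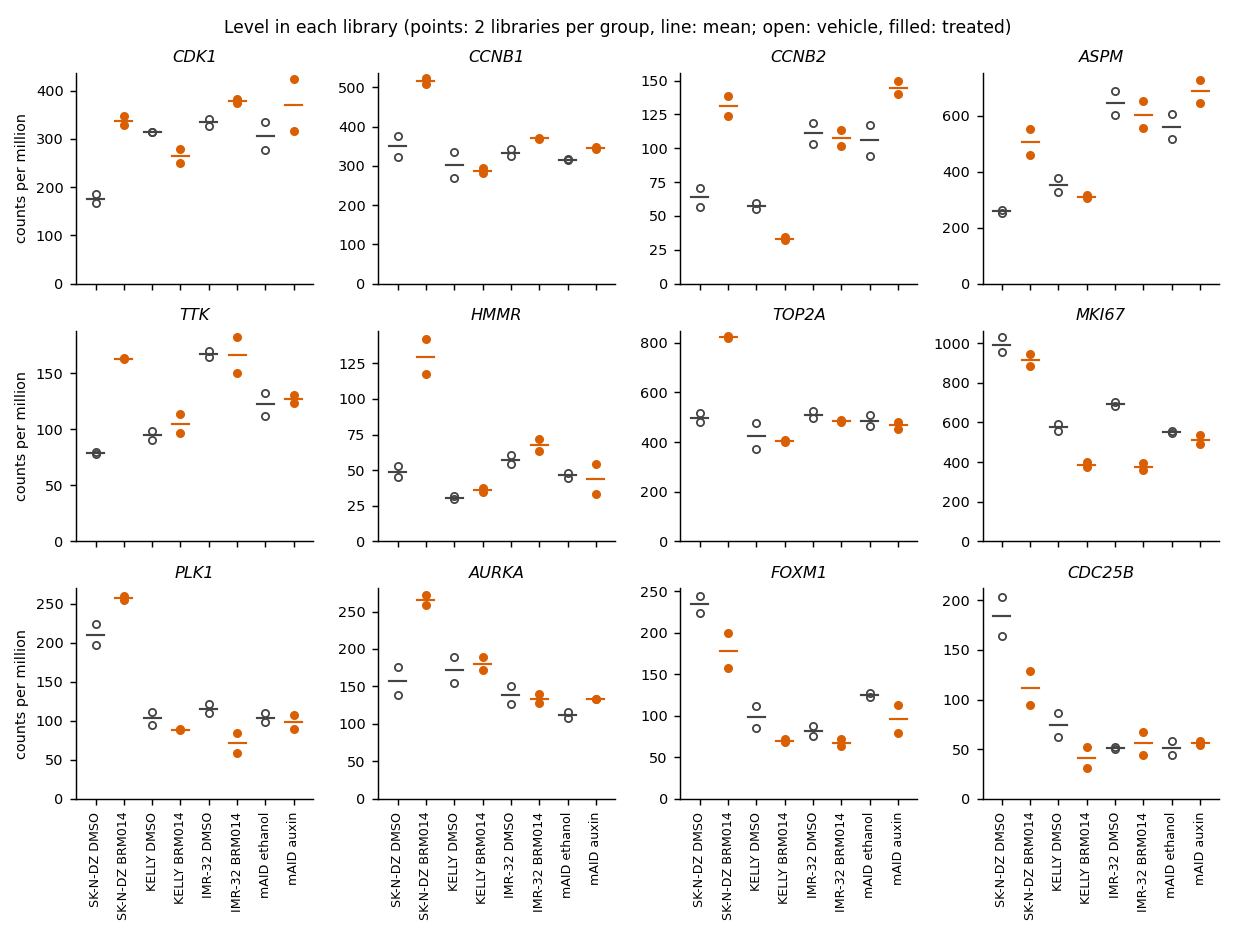
CPM (y axis, from 0) of 12 members in each of the 16 labelled libraries, by group, with points for the 2 libraries and a line for their mean. CDK1, TTK, HMMR and TOP2A stand higher in both SK-N-DZ BRM014 libraries than in the DMSO pair, whereas MKI67 stands lower in the BRM014 pairs of KELLY and IMR-32.

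The size of the change ran with base composition. The 24 members that rose had a median G+C content of 40.4% in their longest annotated transcript, against 47.95% for the other 26 and 47.4% for all tested genes with a value. Across members the correlation of the change with G+C content was r = -0.57 (n = 50 genes that share the same 4 libraries), and across 12505 tested genes it was -0.35. The other BRM014 comparisons had the same sign: -0.49 for members and -0.29 for all genes in KELLY, and -0.24 and -0.27 in IMR-32, with -0.05 and -0.11 for auxin. With an offset for G+C content and length in the fit, 20 members were higher and 2 lower, against 875 and 916 of all 12853 tested genes. The median stayed at 0.40 against 0.00 over all genes. Of the 24 calls 16 were kept, among them CDK1 (0.59), CCNB2 (0.97), TTK (0.85), ASPM (0.50), HMMR (1.03) and TOP2A (0.40). Calls were lost for CCNA2, KIF11, KIF14, CENPE (0.40), CENPF (from 0.31 to -0.00387, a change of sign), NDC80, DLGAP5 and CKAP2, and for CDC25B (-0.09). PLK1 (0.80, adjusted p = 1.99e-04), INCENP (1.00), CDC20 (0.78) and KIF20A (0.44) passed the test as higher and BUB3 (-0.46) and SMC4 (-0.52) as lower under the offset alone. Beyond this, the part of base composition in the change was not tested.

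**Figure D3:**
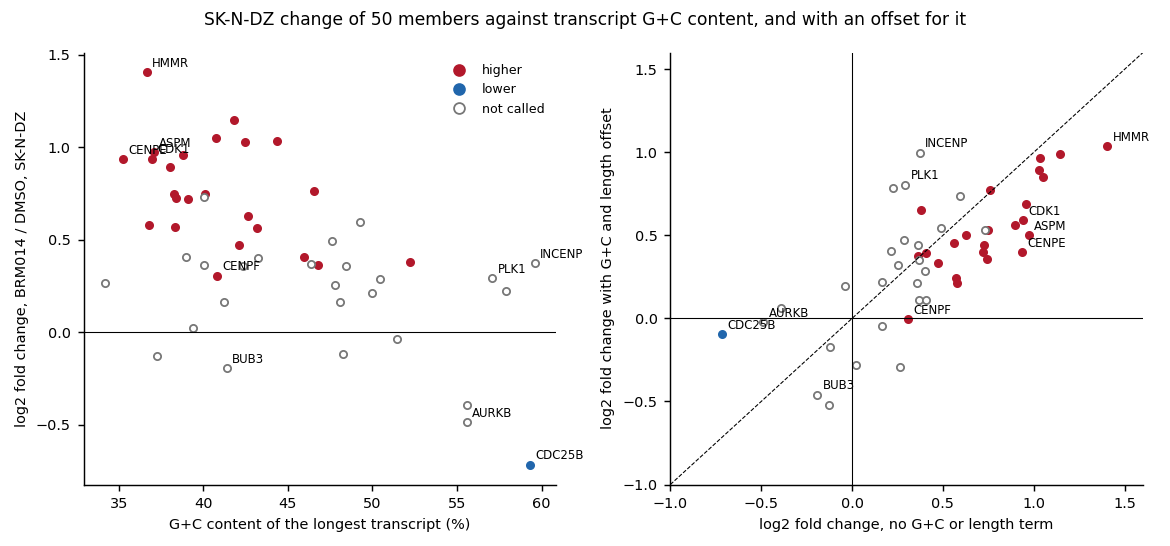
Left, the SK-N-DZ log2 fold change of the 50 members (y axis) against the G+C percent of the longest transcript (x axis). Right, the change with the G+C and length offset (y axis) against the change without it (x axis), with the dashed line marking equality: 21 of the 24 higher members lie below that line, and HMMR is the highest on both axes.

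In KELLY, BRM014 lowered a few members and raised none. Of the 50, 6 (12%) were lower, against 4.98% of all tested genes, and 0 were higher, against 6.57%. At an unadjusted p below 0.05 the edgeR counts were 14 lower and 0 higher. No count over all genes was made at that unadjusted threshold, here or in the comparisons below. DESeq2 called 7 lower and 0 higher, against 626 lower and 813 higher over all genes. The median change was -0.19, against 0.00 over all genes, and 37 estimates lay below 0. The members' share of gene counts was 1.12% ± 0.0332 (SD, n = 2) with DMSO and 0.958% ± 0.00898 with BRM014.

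MKI67 fell the most firmly, from 593 and 556 CPM to 399 and 375 CPM, with both treated libraries far below both controls (log2 fold change -0.57 ± 0.0998 (SE), adjusted p = 5.72e-06). AURKB, the kinase of the chromosomal passenger complex (chr17:8204733-8210600), went from 96.5 and 77.6 CPM to 35.3 and 59.5 CPM (log2 fold change -0.88 ± 0.242 (SE), adjusted p = 0.00726). CDC25B went from 86.9 and 62.4 CPM to 30.7 and 52.5 CPM (log2 fold change -0.85 ± 0.257 (SE), adjusted p = 0.0173). In both of these the 2 treated libraries differed from each other by more than 1.5-fold, and without the first BRM014 library the changes were -0.56 (adjusted p = 0.302) and -0.52 (adjusted p = 0.389). Without the first DMSO library they were -0.71 and -0.58, and with the G+C and length offset -0.53 and -0.46, in each case no longer called.

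Cyclin B2, which rose in SK-N-DZ, fell in KELLY. CCNB2 was measured at 59.4 and 54.8 CPM with DMSO and 34.6 and 32.0 CPM with BRM014, a clear separation of 2 tight pairs (log2 fold change -0.78 ± 0.247 (SE), adjusted p = 0.0244). KIF23, a motor of the central spindle, went from 272 and 236 CPM to 179 and 209 CPM (log2 fold change -0.39 ± 0.132 (SE), adjusted p = 0.0360), and SMC4, a condensin subunit that compacts chromosomes, from 974 and 933 CPM to 776 and 777 CPM (log2 fold change -0.30 ± 0.0914 (SE), adjusted p = 0.0204). The CCNB2 call was lost without any 1 of the 4 libraries (-0.84 to -0.71, adjusted p from 0.0566 to 0.186) and when the 2 KELLY groups were fitted alone (adjusted p = 0.0611). KIF23 was lost without the first BRM014 or first DMSO library (-0.29 and -0.28), and SMC4 without either BRM014 library or the first DMSO library (-0.30, -0.30 and -0.26). The other genes of the CDK1 group had estimates from -0.57 to -0.08, all below 0, and did not pass the test. CDK1 was at 314 and 314 CPM and 251 and 279.8 CPM (adjusted p = 0.231), and CCNB1 at 336 and 268 CPM and 282 and 293 CPM, where the pairs overlapped (adjusted p = 0.774). FOXM1 was at 85.1 and 112 CPM with DMSO and 68.6 and 71.7 CPM with BRM014. Its difference of -0.48 ± 0.202 did not pass the test (adjusted p = 0.117).

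TOP2A (475 and 373 CPM with DMSO, 399.9 and 408 CPM with BRM014) and AURKA (155 and 189 CPM, then 189 and 172 CPM) overlapped between the groups. PLK1 stood at 112 and 95.1 CPM and 88.2 and 89.0 CPM (adjusted p = 0.520), and its estimate turned from -0.23 to 0.06 with the G+C and length offset. The intervals of these 3 changes, -0.29 to 0.14, -0.24 to 0.39 and -0.60 to 0.15, cover 0. The count of lower members moved with the setting. It was 10 with upper-quartile scaling, where 793 of all genes were lower, and 10 with the G+C and length offset, where 604 were. The main fit called 640 genes lower. Without the first BRM014 or the first DMSO library fewer members were called lower, and fewer of all genes too, at member medians of -0.18 and -0.15. MKI67 was called in each of these fits.

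In IMR-32 BRM014 also lowered a few members. Of the 50, 6 (12%) were lower, against 6.57% of all genes, and 0 were higher, against 6.26%. At an unadjusted p below 0.05 the edgeR counts were 8 lower and 0 higher. DESeq2 called 6 lower and 0 higher, against 786 lower and 887 higher over all genes. The median was -0.17 against -0.02 over all genes. The share of gene counts was 1.22% ± 0.00212 (SD, n = 2) with DMSO and 1.03% ± 0.0099 with BRM014.

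MKI67 was again first. It went from 705 and 684 CPM to 359.5 and 393 CPM, with the treated pair far below the controls (log2 fold change -0.88 ± 0.106 (SE), adjusted p = 1.89e-10). BUB3, a checkpoint protein that binds BUB1 and BUBR1 at kinetochores (chr10:123154277-123170467), went from 503 and 455 CPM to 265 and 340.0 CPM (log2 fold change -0.66 ± 0.124 (SE), adjusted p = 3.22e-05). CDCA8, also called borealin, of the passenger complex (chr1:37692418-37709719), went from 95.6 and 60.4 CPM to 45.7 and 37.9 CPM (log2 fold change -0.92 ± 0.274 (SE), adjusted p = 0.0149). In BUB3 and CDCA8 both treated libraries were below both controls, by a wide gap for BUB3 and a narrower one for CDCA8.

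PLK1 went from 109.5 and 122 CPM to 84.0 and 59.0 CPM (log2 fold change -0.69 ± 0.218 (SE), adjusted p = 0.0218), CCNA2 from 279 and 275 CPM to 192 and 211 CPM (log2 fold change -0.46 ± 0.152 (SE), adjusted p = 0.0318), and KPNA2, a nuclear import factor that also guides spindle assembly, from 1887 and 1729 CPM to 1509 and 1526 CPM (log2 fold change -0.25 ± 0.0788 (SE), adjusted p = 0.0201). In none of these 3 genes did the groups overlap. CCNA2 lost its call without any 1 of the 4 libraries (-0.57 to -0.43), PLK1 without the second BRM014 or second DMSO library (-0.50 and -0.63), KPNA2 without the first BRM014 or first DMSO library (-0.28 and -0.20) and CDCA8 without the second BRM014 or first DMSO library (-0.82 and -0.54). The calls of PLK1 (-0.32) and CDCA8 (-0.71) were lost with the G+C and length offset as well, which called 11 members lower, against 689 over all genes. MKI67 and BUB3 kept theirs in every fit run.

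CDK1 and CCNB1 did not pass the test in IMR-32. CDK1 was at 342 and 326 CPM with DMSO and 383 and 375 CPM with BRM014, an estimate of 0.18 ± 0.132 (adjusted p = 0.414), whose sign turned with the G+C and length offset (-0.01). CCNB1 was at 343 and 324 CPM and 371 and 368 CPM (0.15 ± 0.126, adjusted p = 0.511). For both genes the treated pair was slightly above the controls. AURKA (150.0 and 127 CPM, then 140.0 and 128 CPM), TOP2A (498 and 523 CPM, then 479 and 490.3 CPM) and FOXM1 (87.5 and 76.0 CPM, then 72.2 and 63.2 CPM) had intervals of -0.42 to 0.31, -0.30 to 0.15 and -0.75 to 0.19. The groups overlapped for AURKA, and both treated libraries were below both controls for TOP2A and FOXM1, by a narrow gap. The FOXM1 estimate turned from -0.28 to 0.07 with the G+C and length offset.

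Auxin in the SMARCA4-mAID line moved no member past the threshold. None of the 50 was higher, against 1.03% of all genes, and none lower, against 1.16%, by edgeR's quasi-likelihood test. DESeq2 also called 0, against 130 higher and 156 lower over all genes. At an unadjusted p below 0.05 there were 3 higher and 2 lower. With the G+C and length offset SMC4 was called lower (-0.33, adjusted p = 0.0374). The median change was -0.00 (all genes 0.00), and the members' share of gene counts was 1.17% ± 0.0283 (SD, n = 2) with ethanol and 1.16% ± 0.017 with auxin. MKI67 stood at 548 and 556 CPM and 535 and 489 CPM (-0.11, interval -0.31 to 0.09). CDK1 stood at 334 and 277 CPM and 317 and 423 CPM, where 1 auxin library lay inside the ethanol range (0.28, interval 0.03 to 0.53, adjusted p = 0.319). FOXM1 stood at 123 and 128 CPM and 113 and 79.8 CPM, lower in both auxin libraries (-0.38, adjusted p = 0.419).

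CCNB1 (316 and 316 CPM with ethanol, 348 and 344 CPM with auxin), AURKA (116 and 108 CPM, then 133 and 133 CPM), PLK1 (98.5 and 109 CPM, then 89.0 and 107 CPM) and TOP2A (509 and 463 CPM, then 454 and 481 CPM) had adjusted p-values from 0.643 to 0.951. Only AURKA and CCNB1 of these 4 had both auxin libraries above both ethanol libraries. The median standard error of a member's change was 0.168 on the log2 scale, so small changes in a single gene were not detectable at this depth.

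The difference between lines was tested as such. The BRM014 effect was more positive in SK-N-DZ than in KELLY for 17 members and less so for 0, against 1.63% and 2.27% of all genes; the median difference was 0.65, against -0.03 over all genes, and the estimate lay above 0 for all 50 members and for 6063 of the 12853 genes. At an unadjusted p below 0.05 there were 31 higher and 0 lower, and DESeq2 called 18 and 0, against 237 and 292 over all genes. Against IMR-32 the same count was 18 higher and 0 lower, with 1.45% and 1.17% of all genes, a median of 0.64 and 46 estimates above 0. The unadjusted counts were 31 and 1, and DESeq2 called 18 and 0, against 189 and 173 over all genes. These 2 tests share the SK-N-DZ libraries.

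In the test against KELLY the smallest p-values were those of ASPM (difference 1.16 ± 0.163, adjusted p = 1.30e-07), CDK1 (1.18 ± 0.184, adjusted p = 1.98e-06), CCNB2 (1.81 ± 0.332, adjusted p = 6.66e-05), KPNA2, TOP2A and CENPE. CCNB2 had the largest difference of all members in that test. KPNA2 was at 997 and 999 CPM with DMSO and 1309 and 1334 CPM with BRM014 in SK-N-DZ, against 1621 and 1558 CPM and 1371 and 1410.5 CPM in KELLY (0.60 ± 0.111, adjusted p = 8.59e-05). CENPE was at 144 and 104 CPM and 119.6 and 118 CPM in KELLY, pairs that overlapped, and its difference of 1.01 lost its call without the first KELLY DMSO library (0.74, adjusted p = 0.153). The number of higher members was 7 without that library, 10 without the first KELLY BRM014 library, 11 without the first SK-N-DZ BRM014 library and 12 to 15 without each of the others, and it was 15 with the G+C and length offset.

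In the test against IMR-32 they were those of ASPM (1.07 ± 0.162, adjusted p = 1.12e-06), KPNA2 (0.66 ± 0.112), MKI67 (0.76 ± 0.144, adjusted p = 1.49e-04), TOP2A, CENPE and NUF2. ASPM was at 603 and 689 CPM with DMSO and 555 and 650.4 CPM with BRM014 in IMR-32, pairs that overlapped. NUF2 was at 165 and 202 CPM and 155 and 124 CPM there, with both treated libraries below both controls, and its difference (1.35 ± 0.293) was no longer called without the second SK-N-DZ BRM014 library (0.83, adjusted p = 0.205). HMMR, with the largest SK-N-DZ fold, passed neither test (adjusted p = 0.0984 and 0.116). FOXM1 had differences of 0.09 and -0.11 with intervals of -0.45 to 0.63 and -0.71 to 0.48. The count of higher members was 12 with the G+C and length offset, 11 without the first SK-N-DZ BRM014 library and 12 to 14 without each of the other libraries.

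No difference of effect between KELLY and IMR-32 was called for a member. None passed the test of that difference in either direction by edgeR, against 2.08% and 1.21% of all genes. DESeq2 also called none, against 248 higher and 175 lower over all genes, and the unadjusted counts were 3 higher and 3 lower. The median standard error of such a difference was 0.253, wider than that of a single effect, and leaving out 1 library gave 0 or 1 call in each direction. Between the inhibitor and the degron in IMR-32, 2 members had a lower effect with BRM014, MKI67 (-0.77 ± 0.145, adjusted p = 2.77e-04) and BUB3 (-0.79 ± 0.168, adjusted p = 0.00160), and 0 had a higher one, against 0.887% and 1.06% of all genes. BUB3 was at 419 and 394 CPM with ethanol and 439 and 451 CPM with auxin, the auxin pair being slightly the higher (adjusted p = 0.753). The BUB3 difference was no longer called without the first IMR-32 BRM014 library (-0.66, adjusted p = 0.0551), and with the G+C and length offset ASPM was called as well (-0.60).

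Genes of DNA replication, which act before the mitotic genes in the cycle, fell in SK-N-DZ. Of 40 listed replication genes 31 (77.5%) were lower and 0 higher there, against 9.55% and 9.88% of all genes (median -1.04), led by UHRF1 (-2.31 ± 0.204, adjusted p = 2.05e-16), which maintains DNA methylation, and the helicase subunits MCM3 (-1.64 ± 0.156) and MCM2 (-1.58 ± 0.158). In IMR-32 22 (55%) were lower and 0 higher, against 6.57% and 6.26% (median -0.80), with UHRF1 (-1.71 ± 0.222), the transcription factor E2F2 (-1.61 ± 0.218) and MCM4 (-1.16 ± 0.159) first. In KELLY 18 (45%) were lower and 0 higher, against 4.98% and 6.57% (median -0.52), with RRM2 (-0.67 ± 0.101), ORC6 (-0.91 ± 0.164) and MCM4 (-0.70 ± 0.133) first. With auxin 3 (7.5%) were lower and 0 higher, against 1.16% and 1.03% (median -0.25): UHRF1 (-0.83 ± 0.168), CCNE2 (-0.87 ± 0.230) and MCM7 (-0.53 ± 0.143). The ratio of the summed CPM of the 50 members to that of the 40 replication genes was 1.53 ± 0.0311 (SD, n = 2) with DMSO and 4.01 ± 0.253 with BRM014 in SK-N-DZ. IMR-32 had ratios of 2.41 ± 0.00707 with DMSO and 3.58 ± 0.116 with BRM014, and KELLY of 1.69 ± 0.147 and 2.15 ± 0.0219. The degron line had 2.14 ± 0.1 with ethanol and 2.54 ± 0.0488 with auxin. In each of the 4 comparisons both treated libraries had a higher ratio than both controls. No test was made of the ratio, which moves with either sum.

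**Figure D4:**
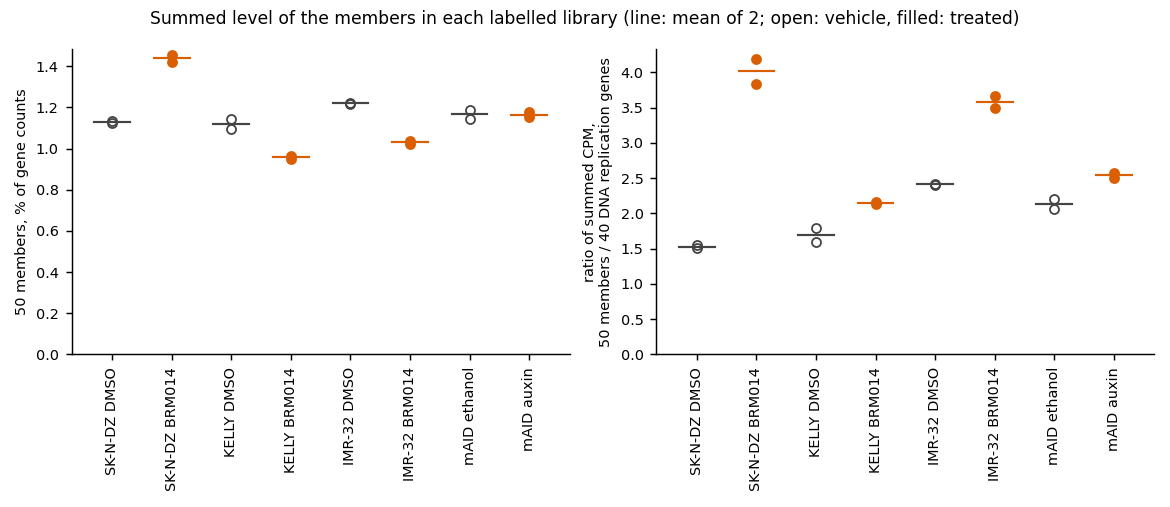
Left, the summed counts of the 50 members as a percent of all gene counts (y axis) in each labelled library, by group (x axis). Right, the ratio of their summed CPM to that of 40 DNA replication genes (y axis); points are libraries and lines the mean of 2. The SK-N-DZ BRM014 libraries stand highest in both panels, at 1.44% and a ratio of 4.01 on average.

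Further genes of the same phase, 71 that are not among the 50, stood near the background in SK-N-DZ. There 9 (12.7%) were higher and 11 (15.5%) lower, against 9.88% and 9.55% of all genes, with a median of -0.03 (all genes -0.04). DEPDC1, a mitotic regulator, rose by 1.78 ± 0.193 (adjusted p = 2.10e-12) and SGO2, which protects sister cohesion, by 1.06 ± 0.198, while CDC25A, the phosphatase active from the start of S phase, had -1.23 ± 0.187. In IMR-32 1 (1.41%) was higher and 15 (21.1%) lower, against 6.26% and 6.57% (median -0.31), led by CDC25A (-1.38 ± 0.192), HJURP (-1.12 ± 0.182), the chaperone of CENPA, and HMGB2 (-0.79 ± 0.138). In KELLY 0 were higher and 13 (18.3%) lower, against 6.57% and 4.98% (median -0.27), led by TUBB4B (-1.16 ± 0.171), CDC25A (-0.82 ± 0.157) and CDCA5 (-0.65 ± 0.140). With auxin 1 (1.41%) was higher, DEPDC1 (0.55 ± 0.145, adjusted p = 0.0191), and 0 lower, against 1.03% and 1.16%; next by p came TUBB4B (-0.59 ± 0.179) and FAM83D (-0.30 ± 0.121).

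The regulators of these promoters, 16 genes of the MuvB, E2F4 and NF-Y complexes, are few, so that 1 call is 6.25% of the list. In SK-N-DZ 1 was higher (6.25%, against 9.88% of all genes) and 3 lower (18.8%, against 9.55%). In IMR-32 1 was higher (6.25%, against 6.26%) and 4 lower (25%, against 6.57%). In KELLY 2 were higher (12.5%, against 6.57%) and 1 lower (6.25%, against 4.98%), and with auxin none was called (against 1.03% and 1.16%). MYBL2, which activates G2/M promoters with MuvB, fell by 1.24 ± 0.210 in SK-N-DZ (adjusted p = 2.17e-06), by 1.19 ± 0.278 in IMR-32 and by 0.85 ± 0.216 in KELLY. In SK-N-DZ TFDP1, a partner of E2F factors, had -0.89 ± 0.187 and TFDP2 0.60 ± 0.172. In IMR-32 RBL1 (p107) had -0.95 ± 0.217 and E2F5 1.03 ± 0.309, and in KELLY TFDP2 had 0.90 ± 0.157 and E2F5 1.27 ± 0.368. With auxin the 3 smallest p-values, of TFDP1 (-0.47 ± 0.167), RBL2 (0.56 ± 0.232) and E2F4 (-0.65 ± 0.280), did not pass the test. Of 17 anaphase-promoting complex genes, 1 (5.88%, against 9.88% of all genes) was higher and 0 (against 9.55%) lower in SK-N-DZ, the first being the subunit CDC27 (1.21 ± 0.125, adjusted p = 1.99e-13), ahead of CDC16 (0.58 ± 0.227) and ANAPC5 (-0.41 ± 0.229), which did not pass. In KELLY CDC27 was also the 1 higher gene (5.88%, against 6.57%; 0.42 ± 0.117, adjusted p = 0.00709) and 3 were lower (17.6%, against 4.98%), UBE2S (-1.33 ± 0.312), the inhibitor FBXO5 (-0.47 ± 0.121) and the activator FZR1 (-1.09 ± 0.355). In IMR-32 0 were higher (against 6.26%) and 2 lower (11.8%, against 6.57%), FBXO5 (-0.60 ± 0.124) and FZR1 (-1.52 ± 0.491). With auxin none of the 17 passed by edgeR (against 1.03% and 1.16%). The smallest p-values there were those of CDC27 (0.26 ± 0.112), CDC16 (0.40 ± 0.203) and FZR1 (-0.72 ± 0.370).

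The promoter motifs were about as common among the SK-N-DZ risers as among the other members. Of the risers with a promoter entry, 14 of 20 held a CHR element and 16 of 20 a CCAAT box, and of the other members with an entry 18 of 23 and 17 of 23. CENPE rose with no exact match to either in its 300 bases, whereas PLK1 and MKI67, with both, did not pass the test in SK-N-DZ. That contrast held only without the G+C and length offset. With it CENPE was no longer called (0.40), PLK1 was called higher (0.80) and MKI67 stayed uncalled (-0.17).

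Levels in the vehicle groups differed between the lines before any inhibitor. Compared with IMR-32, KELLY with DMSO had 7 members (14%) higher and 22 (44%) lower, against 18.1% and 21.6% of all genes (median -0.23, all genes 0.01). SK-N-DZ had 12 (24%) higher and 23 (46%) lower than IMR-32, against 21.2% and 22.9% (median -0.28, all genes 0.03), and 10 (20%) higher and 12 (24%) lower than KELLY, against 16.6% and 15.2% (median 0.01, all genes 0.04). By mean CPM, 27 members were highest in IMR-32, 13 in SK-N-DZ and 10 in KELLY. These are differences between 3 single lines that were also grown in different media, IMR-32 in MEM and the others in DMEM. With the G+C and length offset the split became 8 higher and 11 lower for KELLY against IMR-32 (median -0.02, all genes 0.10). Over all tested genes 2429 were then higher and 2191 lower. For SK-N-DZ against IMR-32 it was 15 and 8 (0.05, all genes 0.08), with 2232 and 1973 over all genes. For SK-N-DZ against KELLY it was 16 and 9 (0.13, all genes 0.00), with 1860 and 1950 over all genes. Total-count scaling shifted the median of all genes to 0.17 in both comparisons with IMR-32, and upper-quartile scaling to 0.13 for KELLY and 0.12 for SK-N-DZ. Under total-count scaling the splits were 9 and 15 for KELLY, with 2947 and 2281 over all genes. For SK-N-DZ they were 13 and 19, with 3195 and 2422 over all genes.

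**Figure D5:**
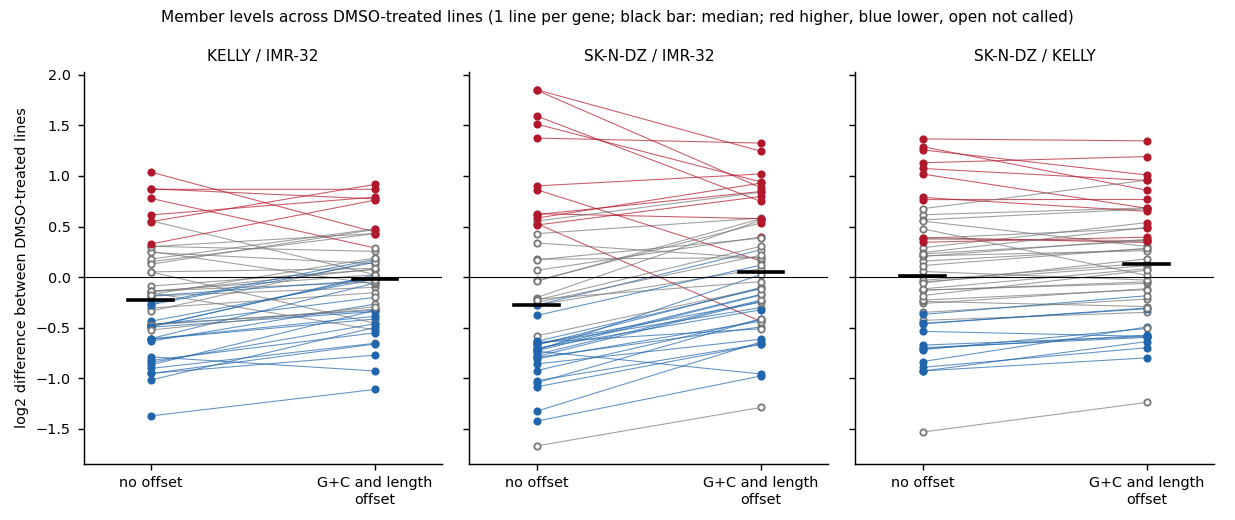
Log2 difference between DMSO-treated lines (y axis) for each of the 50 members without an offset and with the G+C and length offset (x axis), 1 line per gene, with black bars for the medians. Most blue lines (members called lower without the offset) climb in both comparisons with IMR-32, whose medians go from -0.23 to -0.02 and from -0.28 to 0.05.

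FOXM1, AURKB, CDC25B and UBE2C were among the members that stood higher in SK-N-DZ. FOXM1 was at 244 and 224 CPM there, 85.1 and 112 CPM in KELLY and 87.5 and 76.0 CPM in IMR-32. SK-N-DZ exceeded both other lines, at a difference of 1.51 ± 0.191 from IMR-32 (adjusted p = 1.19e-10) and 1.26 ± 0.184 from KELLY, while KELLY and IMR-32 did not differ beyond their spread (adjusted p = 0.337). AURKB followed a similar order, 192 and 177 CPM in SK-N-DZ, 96.5 and 77.6 CPM in KELLY and 44.1 and 58.6 CPM in IMR-32 (1.85 ± 0.236 and 0.78 ± 0.248 from IMR-32). CDC25B was at 164 and 203 CPM, 86.9 and 62.4 CPM and 50.0 and 52.2 CPM in the same order of lines (1.85 ± 0.245 from IMR-32), and KELLY and IMR-32 were not called different (adjusted p = 0.0772). With the G+C and length offset the differences between SK-N-DZ and IMR-32 were 0.94 for FOXM1, 1.24 for AURKB and 0.88 for CDC25B, all still called, and that of AURKB between KELLY and IMR-32 was 0.29 and lost.

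UBE2C, the ubiquitin-conjugating enzyme of the anaphase-promoting complex, was at 222 and 220.3 CPM in SK-N-DZ, 106 and 95.1 CPM in KELLY and 86.0 and 84.2 CPM in IMR-32, with both SK-N-DZ libraries far above the rest (1.37 ± 0.186 from IMR-32, 1.32 with the offset). PLK1 was at 196 and 224 CPM, 112 and 95.1 CPM and 109.5 and 122 CPM. SK-N-DZ was higher than IMR-32 by 0.86 ± 0.176, a call lost with the G+C and length offset (0.16), while KELLY, at -0.15 from IMR-32, was called lower only with the offset (-0.52). KIF20A, a motor of cytokinesis, was at 249.8 and 222 CPM in SK-N-DZ and 93.5 and 89.0 CPM in KELLY (1.37 ± 0.166, adjusted p = 4.54e-11), and its exons overlap those of BRD8 and CDC23. MKI67 was highest in SK-N-DZ (956 and 1029 CPM), then IMR-32 (705 and 684 CPM) and KELLY (593 and 556 CPM). SK-N-DZ exceeded KELLY by 0.79 ± 0.0963, and the step from IMR-32 to KELLY (-0.27) was called (adjusted p = 0.0198) and turned to 0.15, not called, with the offset.

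CDK1, ASPM and KPNA2 stood lower in SK-N-DZ than in both other lines. CDK1 was at 186 and 167 CPM in SK-N-DZ, 314 and 314 CPM in KELLY and 342 and 326 CPM in IMR-32, at -0.92 ± 0.130 from IMR-32 (adjusted p = 4.31e-09), with KELLY and IMR-32 not differing beyond their spread (adjusted p = 0.613). ASPM was at 263 and 252 CPM, 377 and 329 CPM and 603 and 689 CPM in the same order, and all 3 lines differed (-1.32 ± 0.113 for SK-N-DZ and -0.87 ± 0.111 for KELLY against IMR-32). KPNA2 was at 997 and 999 CPM, 1621 and 1558 CPM and 1887 and 1729 CPM (-0.86 ± 0.0781 for SK-N-DZ against IMR-32). With the offset the differences from IMR-32 were -0.42, -0.64 and -0.61, all still called. The BRM014 and vehicle comparisons of SK-N-DZ share its 2 DMSO libraries, so their values are set side by side and no relation between them is drawn.

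CENPF and 4 others had the smallest p-values among members lower in KELLY, beside ASPM. CENPF, a large kinetochore protein, was at 549.8 and 458 CPM in KELLY and 970.5 and 1074 CPM in IMR-32 (-1.02 ± 0.0970, adjusted p = 1.11e-15). CKAP2 (259 and 235 CPM against 494 and 463 CPM), KIF11 (192 and 186 CPM against 340.4 and 339 CPM), BIRC5 (246 and 200.0 CPM against 406 and 366 CPM) and BUB1 (41.4 and 42.6 CPM against 116 and 101 CPM) were also lower, at -0.95, -0.84, -0.79 and -1.37. In each of these 5 genes both KELLY libraries lay below both IMR-32 libraries, and each kept its call with the offset, CENPF at -0.50 and KIF11 at -0.46. ANLN, an actin-binding protein of the cleavage furrow, was higher in KELLY (321 and 315 CPM) than in SK-N-DZ (179.7 and 155 CPM), a difference of -0.93 ± 0.137 (adjusted p = 2.84e-08) coded as SK-N-DZ minus KELLY.

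CCNB1 and AURKA were not called different between any of the lines. CCNB1 was at 323 and 376 CPM in SK-N-DZ, 336 and 268 CPM in KELLY and 343 and 324 CPM in IMR-32, and adjusted p-values ran from 0.184 to 0.681. AURKA was at 175 and 138 CPM, 155 and 189 CPM and 150.0 and 127 CPM in the same order (0.142 to 0.584). With the offset CCNB1 was called higher in SK-N-DZ than in IMR-32 (0.40) and KELLY (0.37), and AURKA higher in KELLY than in IMR-32 (0.43). TOP2A was at 516 and 482 CPM, 475 and 373 CPM and 498 and 523 CPM, lower in KELLY than in IMR-32 at -0.26 ± 0.107 (adjusted p = 0.0428) that turned to 0.18 with the offset.

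Between the degron line with ethanol and unmodified IMR-32 with DMSO, 4 members were called different, near the background share. Of the 50, 2 (4%) were higher and 2 (4%) lower, against 2.67% and 3.49% of all genes, and the line and its vehicle differ together in that comparison. SMARCA4 counts also differed between these groups, as given above. KIF2C, a kinesin that takes microtubules apart, was higher (141 and 118 CPM against 83.8 and 68.6 CPM; 0.75 ± 0.203, adjusted p = 0.0105), and so was FOXM1 (123 and 128 CPM against 87.5 and 76.0 CPM; 0.61 ± 0.199, adjusted p = 0.0471). CKAP2 (360.3 and 335 CPM; -0.46 ± 0.117, adjusted p = 0.00554) and MKI67 (548 and 556 CPM; -0.33 ± 0.0981, adjusted p = 0.0232) were lower. FOXM1 (0.52 to 0.72) and MKI67 (-0.35 to -0.30) lost their calls without any 1 of the 4 libraries, CKAP2 without the first IMR-32 DMSO or second ethanol library (-0.41 and -0.39) and KIF2C without the second IMR-32 DMSO or first ethanol library (0.62 and 0.64). With the G+C and length offset KIF2C alone was called.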

How the data were processed

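Newly made RNA was counted per gene in 16 labelled and 2 unlabelled libraries. The deposited values are raw counts per gene symbol; the submitters' processing notes name HISAT, HTSeq, DESeq2 and build hg38 with no version. The rule for counting a read, the annotation, the strand setting and the time in drug: not given in the sources used here. Not counted in the totals were reads in no gene (46.4% to 57.4% of a labelled library's listed reads) and ambiguous ones (1.11% to 1.71%). Without a known strand setting, reads of overlapping exons can be shared (CCNA2 with EXOSC9, FOXM1 with ITFG2, PLK1 with ERN2, BUB1B with BUB1B-PAK6, NUF2 with RGS5, SMC4 with IFT80 and TRIM59, among others), as can those of KIF4A and UBE2C with their copies KIF4B and UBE2CP5.

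The 16 labelled libraries were fitted together with edgeR 4.0.16 in R 4.3.3 (filterByExpr, TMM scaling, quasi-likelihood test, 8 residual degrees of freedom), and p-values were Benjamini-Hochberg adjusted over all 12853 tested genes, with calls at 0.05. The spread shared over all genes lent each gene 83.08 prior degrees of freedom. A gene's own spread between its libraries therefore weighed little in its test. DESeq2 1.42.0, other scalings and filters, each library left out, a replicate block, and a spline offset for G+C content and length of the longest GENCODE 29 transcript (12505 tested genes, 97.29%) were alternatives. The fit was tested on simulated counts. Pairs of same-group libraries differed by more than counting noise, with a chi-square per degree of freedom of 2.36 to 3.31. Per-library values are given for the 6 called members with the smallest p in each comparison and for CDK1, CCNB1, PLK1, AURKA, FOXM1, TOP2A and MKI67, and further members given so (HMMR, NDC80) were chosen after their values were seen. Members and gene lists were chosen with earlier results of these data known.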

Additional observations from a re-analysis of the deposited data

Results flagged for a closer look

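These results were singled out because the difference between the effects in 2 groups passed a test of that difference (adjusted p below 0.05 over all genes). Between SK-N-DZ and KELLY, 17 members had a higher BRM014 effect in SK-N-DZ, and the 6 with the smallest p were ASPM (log2 difference 1.16), CDK1 (1.18), CCNB2 (1.81), KPNA2 (0.60), TOP2A (0.79) and CENPE (1.01). Between SK-N-DZ and IMR-32 there were 18, with ASPM (1.07), KPNA2 (0.66), MKI67 (0.76), TOP2A (0.80), CENPE (1.28) and NUF2 (1.35) first. Between BRM014 and auxin in IMR-32, 2 members had a lower effect with BRM014, MKI67 (-0.77) and BUB3 (-0.79).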

How the results depend on the processing

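With the G+C and length offset, the members called lower were 11 in IMR-32, 10 in KELLY, 2 in SK-N-DZ and 1 with auxin; between DMSO-treated lines 11 were lower for KELLY and 8 for SK-N-DZ against IMR-32 and 16 higher for SK-N-DZ against KELLY, and the degron line had 1 higher and 0 lower than IMR-32. Over all tested genes the offset called 689 lower in IMR-32, 604 in KELLY, 916 in SK-N-DZ and 141 with auxin. Between DMSO-treated lines it called 2191 genes lower for KELLY and 1973 for SK-N-DZ against IMR-32, and 1860 higher for SK-N-DZ against KELLY. The degron line had 360 genes higher and 393 lower. The difference of effect was higher for 201 genes against KELLY and 157 against IMR-32. The SK-N-DZ change of CENPF turned to -0.00387. Upper-quartile scaling gave 10 lower in KELLY (793 over all genes), and no filter 1 higher in the degron line (317 over all genes). The cause of these moves was not tested.

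Replicate numbers did not pair the libraries. Between a treated group and its own vehicle, deviations of same-numbered libraries from their group means correlated at -0.0415 to 0.0185. Over all pairs of labelled groups the range was -0.0528 to 0.0306. With the number as a block, the counts were 6 lower in IMR-32, 6 in KELLY, 25 higher and 1 lower in SK-N-DZ, and 17 higher for the difference between SK-N-DZ and IMR-32. Over all genes the block gave 876 lower in IMR-32, 667 in KELLY, 1271 higher and 1238 lower in SK-N-DZ, and 201 higher for that difference. For the difference between SK-N-DZ and IMR-32 the offset gave 12 higher, and 14 with the block. For the other member values given here with the offset, block and offset together gave the offset's values except 11 lower in KELLY and -0.003902 for CENPF. Over all genes they gave 705 lower in IMR-32, 616 in KELLY, 926 in SK-N-DZ and 157 with auxin.

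Leaving out 1 library at a time gave 3 to 5 lower members in IMR-32, 1 to 5 in KELLY, and 18 to 21 higher and 0 to 1 lower in SK-N-DZ. The differences of effect ran from 7 to 15 higher for SK-N-DZ against KELLY, 11 to 14 for SK-N-DZ against IMR-32, and 0 to 1 in each direction for KELLY against IMR-32. Between DMSO-treated lines the ranges were 4 to 7 higher and 14 to 18 lower for KELLY against IMR-32, 9 to 13 and 18 to 22 for SK-N-DZ against IMR-32, 8 to 11 and 9 to 10 for SK-N-DZ against KELLY, and 0 to 1 and 0 to 1 for the degron line. In these fits the lone library of a group is assumed to vary like the others. SPC25, at 0 to 19 counts, is limited by depth.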
